A study of Mus musculus with 12 samples.

Results

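Transcripts of 10 genes of tumour necrosis factor (TNF) signalling were followed in whole mouse kidney. They were taken by symbol: Tnfsf12, which encodes the ligand TWEAK, its receptor gene Tnfrsf12a (Fn14), the TNF receptor genes Tnfrsf1a and Tnfrsf1b, the further receptor genes Tnfrsf11b and Tnfrsf21, and the NF-kB regulators Nfkbia, Tnfaip3, Nfkb2 and Relb. All 10 were found among the 32047 genes of the count table, and all 10 passed the filter on low counts in each of 3 comparisons. The 12 libraries form 3 groups of 4. NC is an abbreviation that the labels do not spell out. AKI_A_mcherry, called AKI_mcherry here, carries the name of a red fluorescent protein and of acute kidney injury. AKI_A_FGF23_R176QR179Q, called the FGF23 group here, is named for a form of the phosphate hormone FGF23 with the substitutions R176Q and R179Q. In the design text this variant was overexpressed in mice and rhabdomyolysis, the breakdown of skeletal muscle, was then used to injure the kidney after 3 weeks. How the variant was delivered, what NC received, the time of tissue collection, and the strain, age and sex of the mice are not stated in the labels. Nor is it said whether replicates were separate animals, so each p-value reflects only how far these samples spread, which may be technical.

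TNF superfamily ligands bind receptors on the cell surface, and most of these receptors recruit TRAF adaptors that lead to NF-kB, a family of paired transcription factors. In the canonical branch, IkB proteins that hold NF-kB in the cytoplasm are degraded and pairs such as those with RelA enter the nucleus. In the noncanonical branch, the kinase NIK (Map3k14) accumulates and the precursor encoded by Nfkb2 is cut to p52, which pairs with RelB. Several NF-kB targets restrain the pathway again, among them Nfkbia, the IkB alpha gene, and Tnfaip3, the gene of the ubiquitin-editing enzyme A20. In kidney, Fn14 is known as a receptor of low abundance that injured tubules make in larger amounts.

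Library totals were 55324078 to 70638283 counts. Fgf23 was counted 320 to 517 times a library in the FGF23 group and 0 times in the other 8 libraries. Markers of proximal tubule, thick ascending limb, distal nephron and podocytes were present in every library, so the tissue read as kidney. Summed over the 5 genes of the injured tubule list (Havcr1, Lcn2, Krt20, Vcam1 and Sox9), libraries held 14.0 to 23.0 CPM in NC, 4094 to 5039 in AKI_mcherry and 691.5 to 2131 in the FGF23 group. CPM is a gene's count relative to the library total after correction by edgeR's TMM factor. The 7 proximal tubule markers summed to 7216 to 10650 CPM in NC, 840.2 to 1086 in AKI_mcherry and 1344 to 2792 in the FGF23 group. In such bulk tissue, more cells of a type and more RNA per cell cannot be told apart.

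Between AKI_mcherry and NC, 9 of the 10 genes changed, 8 higher and 1 lower, at an edgeR adjusted p under 0.05. Of all 18724 genes tested, 53.1% changed, 27.2% higher and 26.0% lower. For 9 of 10 every library of AKI_mcherry lay outside the range of NC, against 51.3% of all genes tested. The median log2 change was 1.51 over the 10 genes and -0.00264 over all genes. Between the FGF23 group and AKI_mcherry, 3 of 10 changed, 1 higher and 2 lower, where 23.1% of all 18824 genes did, 11.7% higher and 11.4% lower. That share is near the background. Groups did not overlap for 2 of 10, against 28.4% of all genes. The median log2 change was -0.30 over the 10 genes and 0.00837 over all. Between the FGF23 group and NC, 7 of 10 were higher and 0 lower, where 42.3% of all 19005 genes changed, 21.7% higher and 20.6% lower. Groups did not overlap for 7 of 10, against 41.7%. The 3 comparisons share libraries, so their results are not independent of each other. DESeq2 gave the same counts of changed members in all 3 comparisons.

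**Figure D1:**
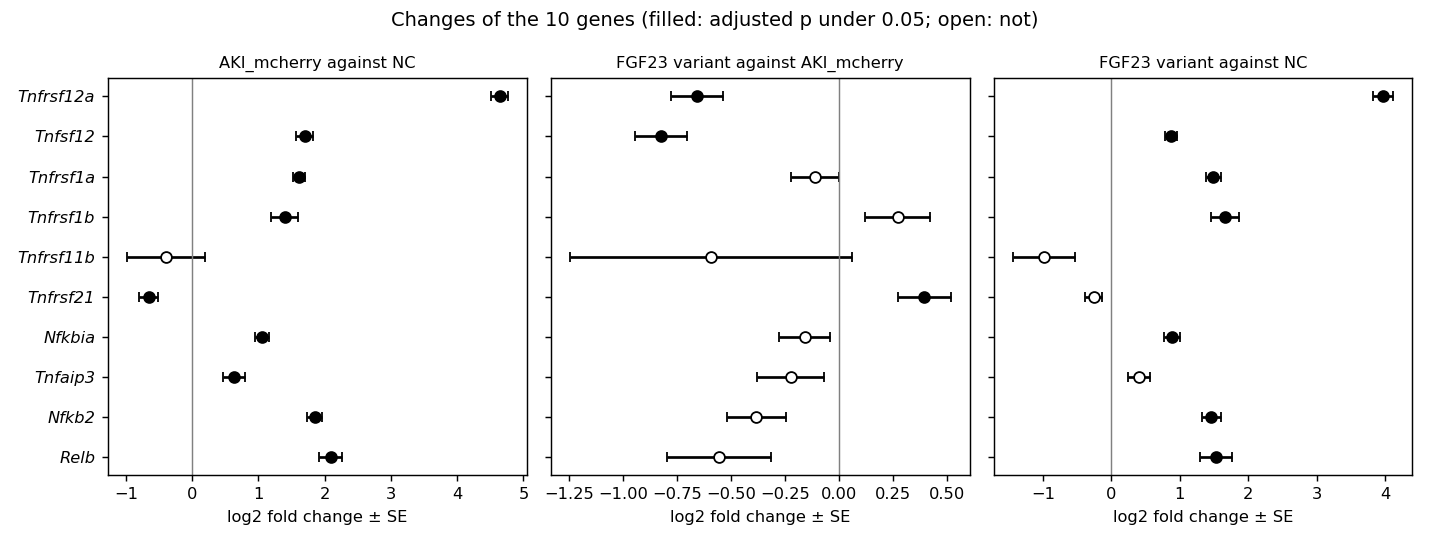
Log2 fold change with its standard error (edgeR, 4 libraries a group) for each of the 10 genes in the 3 comparisons, on a separate scale in each panel. Filled points passed an adjusted p of 0.05, which 9, 3 and 7 genes did, and Tnfrsf12a lies farthest to the right in both comparisons with NC.

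Tnfrsf12a, the TWEAK receptor gene, showed the largest change of the 10 genes in both comparisons with NC. It stood at 17.2, 12.8, 15.9 and 14.0 CPM in the NC libraries, 383, 379, 377 and 348 in AKI_mcherry, then 191, 253, 278 and 231 in the FGF23 group. All AKI_mcherry libraries lay above all libraries of the FGF23 group, and both groups lay far above NC. The means were 15.0 ± 1.95, 372 ± 16.2 and 238 ± 36.9 CPM (SD, n = 4 each). AKI_mcherry exceeded NC by 24.9-fold, a log2 change of 4.64 with a standard error (SE) of 0.12, the form of error given with each log2 change here (edgeR adjusted p = 2.50e-08). This was the 190th largest of 5088 rises in that comparison. In the FGF23 group Tnfrsf12a was 1.58-fold lower than in AKI_mcherry (log2 -0.66 ± 0.12, edgeR adjusted p = 0.00540). It remained 15.7-fold above NC (log2 3.98 ± 0.15, edgeR adjusted p = 1.02e-07).

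The ligand gene Tnfsf12 moved in the same directions over a smaller range. Its levels were 16.8, 15.2, 16.3 and 15.8 CPM in NC, 56.4, 61.2, 42.7 and 47.7 in AKI_mcherry, then 27.6, 29.7, 32.6 and 28.8 in the FGF23 group. The 3 groups did not overlap, with AKI_mcherry highest and NC lowest. Tnfsf12 rose 3.25-fold between NC and AKI_mcherry (log2 1.70 ± 0.13, edgeR adjusted p = 1.89e-06). It was 1.77-fold lower in the FGF23 group than in AKI_mcherry (log2 -0.82 ± 0.12, edgeR adjusted p = 0.00204), and 1.83-fold above NC there (log2 0.87 ± 0.08, edgeR adjusted p = 2.22e-05). In the GRCm38 annotation Tnfsf12 overlaps Tnfsfm13, a read-through gene on the same strand. Tnfsfm13 averaged 6.39, 19.9 and 11.9 CPM in NC, AKI_mcherry and the FGF23 group, and the division of reads between both is uncertain.

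**Figure D2:**
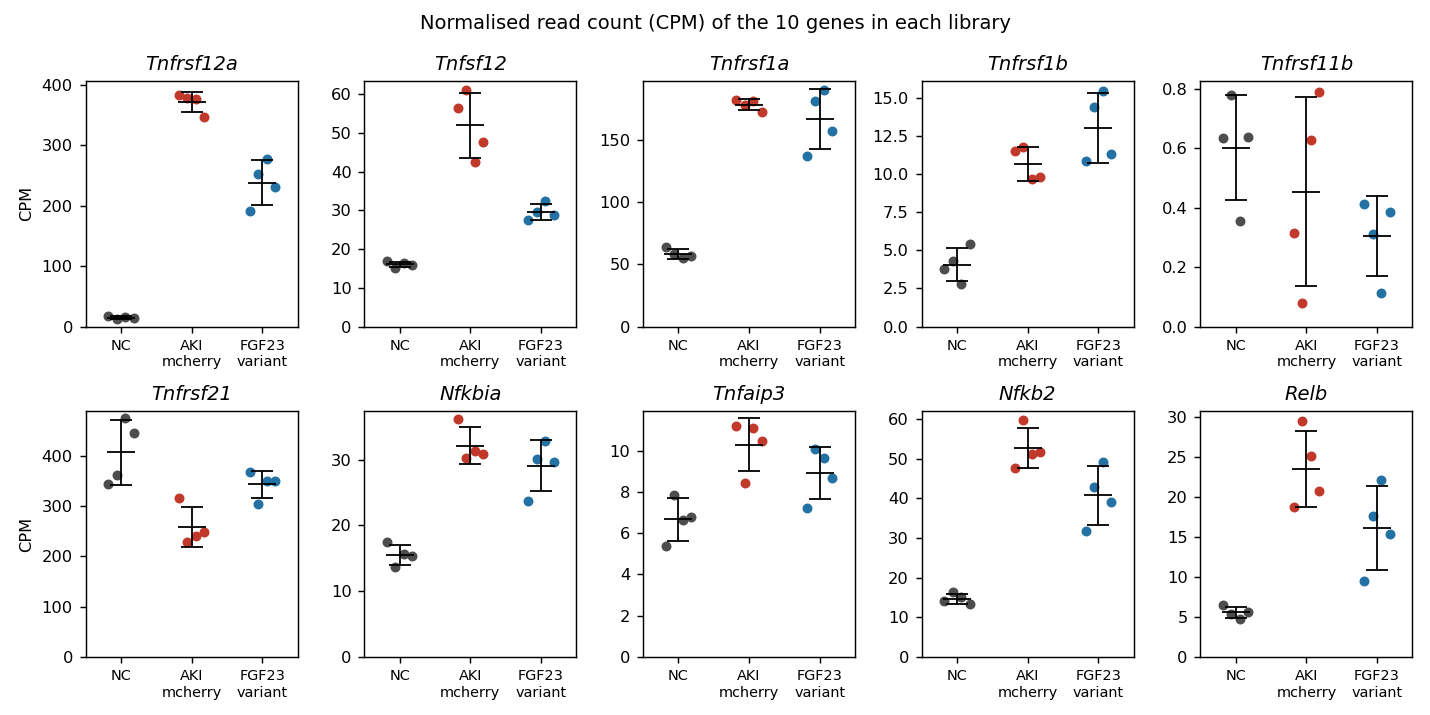
CPM of each of the 10 genes in each of the 12 libraries (points), with the group mean and SD (bars, n = 4); each panel has its own axis from 0. AKI_mcherry is the highest group for Tnfrsf12a and Tnfsf12. NC has the highest mean for Tnfrsf21 but overlaps the FGF23 group, and the 3 groups overlap for Tnfrsf11b.

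The receptors for TNF itself were higher in both injured groups than in NC, and neither passed the test between the injured groups. Tnfrsf1a, the broadly expressed receptor with a death domain, stood at 64.2, 58.8, 54.8 and 57.0 CPM in NC. It stood at 183, 178, 181 and 173 in AKI_mcherry and at 138, 182, 191 and 157 in the FGF23 group. The AKI_mcherry libraries lay close together, and those of the FGF23 group spread on both sides of them. Tnfrsf1a rose 3.05-fold in AKI_mcherry over NC (log2 1.61 ± 0.09, edgeR adjusted p = 2.01e-07) and was 2.81-fold above NC in the FGF23 group (log2 1.49 ± 0.11, edgeR adjusted p = 4.17e-06). The difference between the injured groups was -0.11 ± 0.11 on the log2 scale (edgeR adjusted p = 0.493) and 0.09 when libraries were scaled by their totals alone.

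Tnfrsf1b, the TNF receptor without a death domain, known from leukocytes and endothelium, was a low-level transcript. It was at 3.76, 4.29, 2.82 and 5.44 CPM in NC, 11.6, 11.8, 9.68 and 9.82 in AKI_mcherry, then 10.9, 14.4, 15.5 and 11.3 in the FGF23 group. All injured libraries exceeded all NC libraries, and the injured groups overlapped. It rose 2.64-fold between NC and AKI_mcherry (log2 1.40 ± 0.21, edgeR adjusted p = 2.19e-04) and was 3.16-fold above NC in the FGF23 group (edgeR adjusted p = 1.16e-04). Between the injured groups the log2 difference was 0.27 ± 0.15 (edgeR adjusted p = 0.226), and it passed with library totals alone (0.48 ± 0.15, edgeR adjusted p = 0.0359).

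Markers of cells known to make Tnfrsf1b varied as follows. The 10 macrophage and monocyte markers summed to 146 to 204.5 CPM in NC, 116 to 277 in AKI_mcherry and 112 to 159 in the FGF23 group, with 2 higher and 2 lower in AKI_mcherry than in NC. The 7 endothelial markers summed to 240.1 to 317 CPM, 181 to 270.5 and 296 to 362.5 in the same order, with 4 of 7 higher in the FGF23 group than in AKI_mcherry. The 6 neutrophil markers summed to 0.777 to 1.40 CPM in NC, 3.04 to 10.4 in AKI_mcherry and 1.89 to 6.38 in the FGF23 group. Of these, 5 of 5 tested were higher in AKI_mcherry than in NC. Ly6g, which defines neutrophils, was at 0 in 3 of 4 libraries of each group. The 8 lymphocyte markers summed to at most 5.00 CPM. The part of these cells in the Tnfrsf1b values was not tested.

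Tnfrsf21, which encodes death receptor 6, was the 1 member called lower in AKI_mcherry than in NC. Its levels were 344, 363, 477 and 447 CPM in NC, 316, 228, 241 and 248 in AKI_mcherry, then 369, 304, 351 and 349.7 in the FGF23 group. All AKI_mcherry libraries lay below all NC libraries, and the FGF23 group overlapped both. Tnfrsf21 fell 1.57-fold between NC and AKI_mcherry (log2 -0.65 ± 0.14, edgeR adjusted p = 0.00297). It was 1.31-fold higher in the FGF23 group than in AKI_mcherry (log2 0.39 ± 0.12, edgeR adjusted p = 0.0408), a call lost in 9 of 15 alternatives, among them 7 of the 8 fits that left out a library. Against NC the FGF23 group was at -0.26 ± 0.12 on the log2 scale (edgeR adjusted p = 0.103), and at 0.07 with library totals alone.

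Tnfrsf11b encodes osteoprotegerin, a secreted decoy receptor for the ligand RANKL (Tnfsf11). Its raw counts were 35, 45, 22 and 40 in the NC libraries, 18, 4, 40 and 53 in AKI_mcherry, then 32, 24, 8 and 27 in the FGF23 group, all under 1 CPM. The groups overlapped in every comparison. The log2 difference was -0.39 ± 0.59 between AKI_mcherry and NC, -0.59 ± 0.65 between the injured groups and -0.99 ± 0.46 between the FGF23 group and NC (edgeR adjusted p = 0.604, 0.541 and 0.111), and no difference passed the test. Tnfsf11 had at most 4 counts in any library.

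Among the NF-kB regulators, the noncanonical pair changed most. Nfkb2, which encodes the p100 precursor of p52, was at 14.0, 16.3, 15.1 and 13.3 CPM in NC, 47.8, 59.7, 51.3 and 51.8 in AKI_mcherry, then 31.7, 43.0, 49.3 and 39.0 in the FGF23 group. Every injured library exceeded every NC library, and 1 library of the FGF23 group reached into the AKI_mcherry range. Nfkb2 rose 3.60-fold in AKI_mcherry over NC (log2 1.85 ± 0.11, edgeR adjusted p = 4.31e-07) and was 2.75-fold above NC in the FGF23 group (log2 1.46 ± 0.14, edgeR adjusted p = 1.70e-05). The injured groups differed by -0.38 ± 0.14 on the log2 scale (edgeR adjusted p = 0.0652), which passed in 2 of 15 alternatives. Without replicate 3 of the FGF23 group the difference was -0.49 (edgeR adjusted p = 0.0287). Nfkb2 overlaps 2 genes on the opposite strand, Psd and AC114539.1, at 4.46 to 7.31 and 5.94 to 12.2 CPM over the group means. Whether the counting used strand is not given in the sources used here, so reads of these genes may be mixed with those of Nfkb2.

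Relb, whose product pairs with p52, stood at 6.50, 5.33, 4.73 and 5.63 CPM in NC, 18.7, 29.5, 25.1 and 20.7 in AKI_mcherry, then 9.47, 17.6, 22.2 and 15.4 in the FGF23 group. NC lay below both injured groups, which overlapped. The rise from NC was 4.26-fold in AKI_mcherry (log2 2.09 ± 0.17, edgeR adjusted p = 3.62e-06) and 2.88-fold in the FGF23 group (log2 1.53 ± 0.23, edgeR adjusted p = 3.98e-04). Between the injured groups the log2 difference was -0.56 ± 0.24 (edgeR adjusted p = 0.118), and -0.75 without replicate 3 of the FGF23 group (edgeR adjusted p = 0.0486).

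The feedback genes changed less. Nfkbia stood at 17.5, 13.7, 15.6 and 15.4 CPM in NC, 36.3, 30.3, 31.3 and 30.8 in AKI_mcherry, then 23.7, 30.2, 32.9 and 29.7 in the FGF23 group. Both injured groups lay above NC and overlapped each other. Nfkbia rose 2.08-fold in AKI_mcherry (log2 1.05 ± 0.11, edgeR adjusted p = 1.84e-05) and was 1.85-fold above NC in the FGF23 group (edgeR adjusted p = 1.64e-04). The injured groups were at -0.16 ± 0.12 to each other on the log2 scale (edgeR adjusted p = 0.349) and at 0.04 with library totals alone. Tnfaip3 was at 5.35, 7.85, 6.65 and 6.79 CPM in NC, 11.2, 8.41, 11.1 and 10.5 in AKI_mcherry, then 7.23, 10.1, 9.64 and 8.66 in the FGF23 group. All AKI_mcherry libraries lay above all NC libraries. It rose 1.55-fold in AKI_mcherry (log2 0.63 ± 0.16, edgeR adjusted p = 0.00756), the smallest rise among the 8. The FGF23 group overlapped NC and AKI_mcherry, at 0.40 ± 0.16 against NC (edgeR adjusted p = 0.0647) and -0.23 ± 0.15 against AKI_mcherry (edgeR adjusted p = 0.319) on the log2 scale. With library totals alone Tnfaip3 passed against NC (log2 0.73, edgeR adjusted p = 0.00313), as it did without replicate 1 of the FGF23 group (0.49, edgeR adjusted p = 0.0321) or without NC replicate 2 (0.49, edgeR adjusted p = 0.0474).

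Promoters are shown for the 3 regulators Nfkbia, Tnfaip3 and Nfkb2, which rose together in AKI_mcherry and whose windows hold matches to NF-kB motifs. RefSeq promoter sequences of build GRCm38.p6, 250 bases before to 50 after a transcript start, were matched for 7 of the 10 genes. Tnfsf12, Tnfrsf11b and Relb were not matched. The windows were searched on both strands for the kappaB consensus and for GGANTTTCC, which can overlap it, and matches are printed in capitals within lower case. The windows, written 5′ to 3′ along the gene, are Nfkbia at chr12:55492598-55492897 (minus strand), the upstream start of Tnfaip3 at chr10:19015361-19015660 (minus strand), and 2 of the 3 starts of Nfkb2 at chr19:46304487-46304786 and chr19:46305445-46305744 (plus strand).
Nfkbia: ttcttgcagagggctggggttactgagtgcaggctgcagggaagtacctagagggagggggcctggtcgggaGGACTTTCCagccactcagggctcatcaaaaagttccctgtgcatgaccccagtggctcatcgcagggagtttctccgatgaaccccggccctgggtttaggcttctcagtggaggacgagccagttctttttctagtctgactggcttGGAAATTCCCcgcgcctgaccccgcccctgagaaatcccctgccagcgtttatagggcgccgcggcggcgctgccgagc
Tnfaip3: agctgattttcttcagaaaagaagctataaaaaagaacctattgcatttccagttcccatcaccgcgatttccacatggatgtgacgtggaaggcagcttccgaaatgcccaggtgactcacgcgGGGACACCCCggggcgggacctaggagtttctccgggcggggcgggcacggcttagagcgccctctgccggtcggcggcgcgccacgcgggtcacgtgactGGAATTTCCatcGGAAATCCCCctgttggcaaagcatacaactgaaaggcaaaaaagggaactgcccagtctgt
Nfkb2, first start: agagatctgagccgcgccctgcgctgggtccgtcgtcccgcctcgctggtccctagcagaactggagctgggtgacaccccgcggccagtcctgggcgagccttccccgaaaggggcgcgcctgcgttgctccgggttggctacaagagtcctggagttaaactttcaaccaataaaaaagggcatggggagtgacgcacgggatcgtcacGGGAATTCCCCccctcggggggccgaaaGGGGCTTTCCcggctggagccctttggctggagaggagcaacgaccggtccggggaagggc
Nfkb2, second start: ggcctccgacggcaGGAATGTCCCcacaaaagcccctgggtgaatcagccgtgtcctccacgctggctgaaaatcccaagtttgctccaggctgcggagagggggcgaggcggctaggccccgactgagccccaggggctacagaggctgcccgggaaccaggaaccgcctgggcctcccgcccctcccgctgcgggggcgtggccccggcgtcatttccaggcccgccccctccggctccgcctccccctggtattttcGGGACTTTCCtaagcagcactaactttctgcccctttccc
With the first transcribed base as 0, the kappaB match of Nfkbia spans -29 to -20, and a GGACTTTCC lies at -178 to -170. In Tnfaip3 the matches to GGANTTTCC and the kappaB consensus nearest the start lie at -24 to -16 and -12 to -3. A downstream start of Tnfaip3 was searched too, and its window, not printed, held 0 matches to either motif. The first Nfkb2 window has 3 kappaB matches, 2 of them overlapping at -39 to -29 and 1 at -11 to -2. Either motif was found in all 3 of these regulators and in 0 of the receptors Tnfrsf12a, Tnfrsf1a, Tnfrsf1b and Tnfrsf21, against 10.3% of 27025 genes with a promoter sequence. By motif, 9.55% of those genes held the kappaB consensus and 1.45% GGANTTTCC. A match is a string of letters in a window and was not tested as a binding site. The 3 regulators were listed beforehand as NF-kB targets, so their contrast with the receptors follows from that choice and tests nothing.

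Levels of different genes were compared by the authors' FPKM, which scale fragments by gene length. In NC, Tnfrsf21 was the most abundant of the 10 at 82.5 ± 12.6 FPKM, followed by Tnfrsf1a at 18.9 ± 1.32 (SD, n = 4). Tnfsf12 at 8.81 ± 0.348, Nfkbia at 8.02 ± 0.713 and Tnfrsf12a at 6.43 ± 0.801 followed, and the ranges of neighbours in this run overlapped. Nfkb2 came next at 2.66 ± 0.292, then Relb, Tnfrsf1b and Tnfaip3 with overlapping neighbours between 0.767 and 1.18, and Tnfrsf11b last at 0.175 ± 0.0545. In AKI_mcherry the TWEAK receptor gene was first, at 174 ± 11.1 FPKM and above every other member in every library. Tnfrsf1a at 62.4 ± 4.21 and Tnfrsf21 at 57.0 ± 10.4 overlapped behind it. In the FGF23 group Tnfrsf12a was again first at 127 ± 19.5 FPKM, ahead of Tnfrsf21 at 86.3 ± 7.41 and Tnfrsf1a at 66.5 ± 9.40, whose ranges overlapped. From the fifth place down the order was Nfkbia, Nfkb2, Relb, Tnfrsf1b, Tnfaip3 and Tnfrsf11b in both injured groups.

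**Figure D3:**
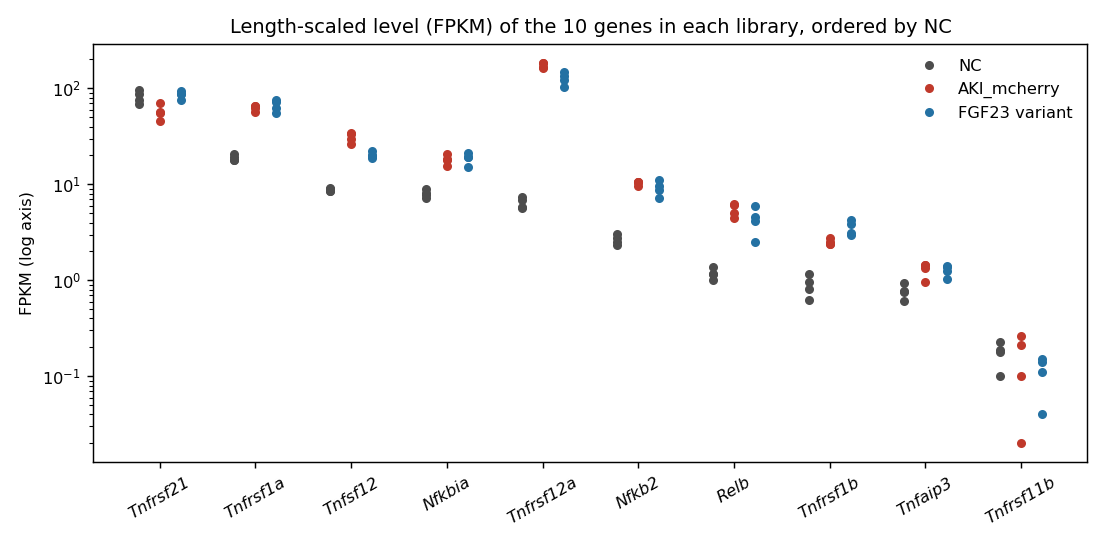
Length-scaled level in FPKM (log axis) of the 10 genes in the 12 libraries, ordered by their mean in NC. Tnfrsf12a moves from the fifth place in NC (5.65 to 7.32 FPKM) to the first in AKI_mcherry (161 to 184) and the FGF23 group (103 to 149).

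Ratios of paired genes within a library do not depend on how libraries are scaled. In NC the FPKM of Tnfrsf12a was 0.727 times that of Tnfsf12 (geometric mean of 4 libraries), in AKI_mcherry 5.66 times and in the FGF23 group 6.26 times. Receptor transcript was thus below ligand transcript in all 4 NC libraries (0.659 to 0.797) and above it in all 8 injured ones (4.86 to 6.94). These ratios take Tnfsf12 as deposited, and the division of its reads with Tnfsfm13 is uncertain. The log2 ratio was 2.96 ± 0.13 higher in AKI_mcherry than in NC and 3.11 ± 0.09 higher in the FGF23 group than in NC (SE, exact two-sided permutation test, p = 0.0286 and adjusted p = 0.0490 each). Between the injured groups it differed by 0.14 ± 0.13 (exact permutation test, p = 0.343, adjusted p = 0.457). The adjustment covers 12 tests, 4 ratios in 3 comparisons, and 0.0286 is the smallest p that 70 assignments allow. Each adjusted p of 0.0490 depends on how many of the 12 tests reached this smallest p.

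Tnfrsf1b was at 0.0458 of the Tnfrsf1a level in NC, 0.0405 in AKI_mcherry and 0.0528 in the FGF23 group. Its log2 ratio was 0.38 ± 0.08 higher in the FGF23 group than in AKI_mcherry, with no overlap (exact permutation test, p = 0.0286, adjusted p = 0.0490). Both other comparisons of this ratio overlapped (exact permutation test, adjusted p = 0.549 and 0.457). Nfkb2 was at 1.17 times Nfkb1, the gene of the canonical precursor p105, in NC, and at 2.62 and 2.39 times in AKI_mcherry and the FGF23 group. Relb was at 0.104 of Rela in NC and at 0.183 and 0.185 in the injured groups. Both ratios were higher in each injured group than in NC, Nfkb2 to Nfkb1 by 1.16 ± 0.16 and 1.03 ± 0.08 and Relb to Rela by 0.82 ± 0.12 and 0.84 ± 0.17 on the log2 scale (exact permutation test, p = 0.0286 and adjusted p = 0.0490 each). Between the injured groups they differed by -0.13 ± 0.15 and 0.02 ± 0.16 (exact permutation test, adjusted p = 0.592 and 0.914).

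**Figure D4:**
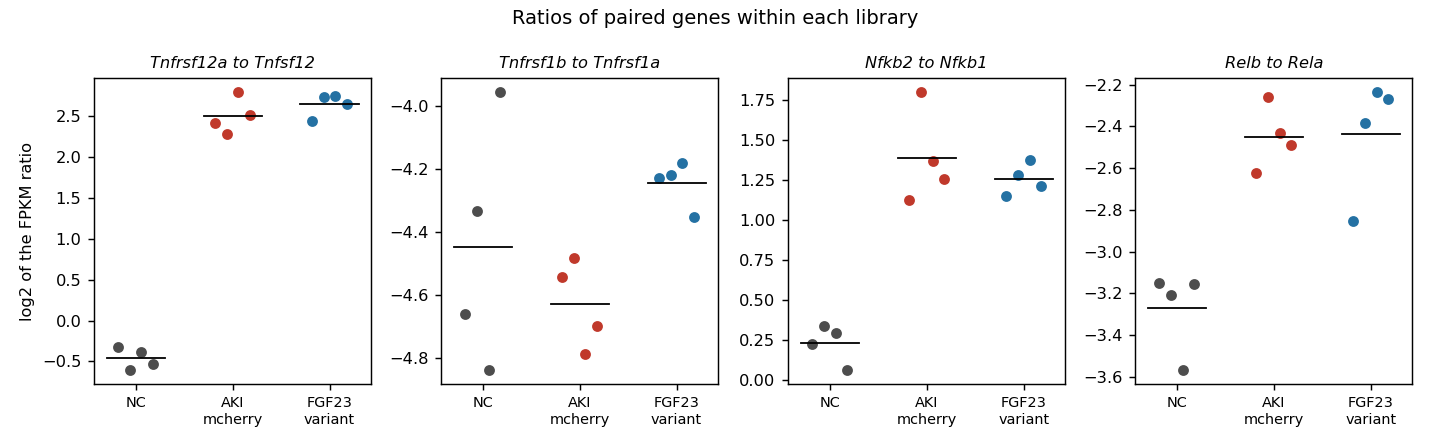
Log2 of the FPKM ratio of 4 gene pairs in each library (points) with the group mean (line); each panel has its own scale. The ratios of Tnfrsf12a to Tnfsf12, Nfkb2 to Nfkb1 and Relb to Rela separate NC from both injured groups, and that of Tnfrsf1b to Tnfrsf1a separates the FGF23 group from AKI_mcherry.

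Within the FGF23 group most members had their lowest value in 1 library and their highest in another. Replicate 1 was the lowest of the 4 libraries for 8 of 10 genes and replicate 3 the highest for 7 of 10. The share of all genes lowest or highest in these libraries was not counted, so this may not be particular to the members. Replicates 1 and 3 also held the least and the most of the injured tubule list, 691.5 and 2131 CPM. Replicates 2 and 5 held 1218 and 1945 CPM. Most members were nevertheless lower in replicate 5 than in replicate 2, such as Tnfrsf12a (231 against 253 CPM) and Relb (15.4 against 17.6). Tnfrsf11b and Tnfrsf21 were higher in replicate 5. Replicate 4 of AKI_mcherry held the most of the list in its group (5039 CPM) and the least Tnfrsf12a (348 CPM). In AKI_mcherry no library was lowest or highest for more than 5 of 10 genes. The part of the injury level in the spread of the members was not tested. Leaving out replicate 1 of the FGF23 group kept Tnfrsf12a and Tnfsf12 lower than in AKI_mcherry, then 2 members passed in place of 3.

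Of 89 other genes of the pathway, fixed in 6 lists, 78 could be tested between AKI_mcherry and NC, and 41 were higher and 7 lower, with a median log2 change of 0.64. Over all genes tested there, 53.1% were called, 27.2% higher and 26.0% lower. Among 17 tested receptor genes, 9 rose and 2 fell. Tnfrsf23 and Tnfrsf22, mouse decoy receptors for TRAIL that are near copies of each other and may share reads, rose 45.7-fold and 5.60-fold, Tnfrsf23 from 0.907 ± 0.375 to 41.2 ± 4.39 CPM. Eda2r, a receptor for an ectodysplasin form, rose 7.63-fold. Edar fell 6.40-fold, resting on 0 to 31 counts a library in AKI_mcherry, and Fas 1.49-fold. Of 11 tested ligand genes, 4 rose and 1 fell. Tnfsf10, which encodes TRAIL, fell 3.20-fold from 64.1 ± 5.55 CPM in NC, while Tnfsf13 (APRIL) rose 2.48-fold and Eda 1.69-fold. Tnf itself was at 0.163 ± 0.142 CPM in NC and 0.515 ± 0.218 in AKI_mcherry (edgeR adjusted p = 0.112).

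Between receptor and NF-kB, 9 of 21 adaptor and kinase genes rose and 2 fell, a share near the 53.1% called over all genes. The shares called in the ligand list and in the list of other feedback genes were below it. Map3k14, the gene of the noncanonical kinase NIK, rose 2.66-fold from 12.1 ± 0.973 to 32.0 ± 1.93 CPM, Birc3, which encodes the ubiquitin ligase cIAP2, 2.57-fold, and the adaptor gene Traf2 2.11-fold. Chuk, the gene of the kinase IKK alpha, fell 1.94-fold and Tab1 1.27-fold. Of 8 other subunit and IkB family genes, 7 rose and 0 fell. Bcl3 and Nfkbiz, atypical nuclear IkB genes, rose 8.34-fold and 6.30-fold, Nfkbid 2.88-fold, Rela 2.41-fold and Nfkb1 1.62-fold. Other feedback genes had 3 higher and 1 lower of 9, namely the deubiquitinase genes Otulin (1.94-fold) and Otud7b (1.25-fold) and Tnip2 (1.89-fold) higher and Tax1bp1 (1.34-fold) lower. Effector genes known as NF-kB targets had 9 higher and 1 lower of 12. Lcn2 rose 492-fold and the neutrophil chemokine genes Cxcl2 and Cxcl1 85.2-fold and 29.5-fold, Cxcl2 from 0 to 5 counts a library in NC. Sod2, the mitochondrial superoxide dismutase gene, fell 2.39-fold.

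Between the FGF23 group and AKI_mcherry, 3 of 78 tested genes of these lists were higher and 16 lower, with a median log2 change of -0.13. Over all 18824 genes tested, 23.1% were called, 11.7% higher and 11.4% lower. The 19 of 78 called in either direction were near that share. With library totals alone, which moved the median of all genes to 0.21, 6 genes of the lists were higher and 8 lower. Over all genes, 4060 were then higher and 1035 lower in place of 2199 and 2148. Lower were 3 receptor genes, Tnfrsf25 (2.36-fold), Tnfrsf23 (1.70-fold) and Ltbr, the lymphotoxin beta receptor gene, and Eda2r was higher (1.77-fold). Of the adaptor and kinase genes 6 of 21 were lower and 0 higher, the largest being Tradd (1.54-fold), Map3k14 (1.47-fold) and Traf2 (1.33-fold). Bcl3 (1.82-fold), Nfkbiz (1.52-fold) and Rela (1.52-fold) were lower among 8 subunit and IkB genes. In the feedback list 0 of 8 passed by edgeR or DESeq2 after adjustment, and 1 had an unadjusted edgeR p under 0.05. Nfkb1 was at -0.26 ± 0.12 and Birc3 at -0.10 ± 0.13 on the log2 scale (edgeR adjusted p = 0.126 and 0.625). Tnfsf13b, the ligand gene of BAFF, was 2.35-fold higher, and Tnf was at 0.11 ± 0.40 on the log2 scale (edgeR adjusted p = 0.867). Of 12 effector genes 4 were lower, among them Lcn2 (4.49-fold), Ccl2 (2.93-fold) and Bcl2l1 (1.79-fold), and Icam1 was 1.33-fold higher. Ccl2 spread from 1.48 to 10.4 CPM in AKI_mcherry and overlapped the FGF23 group (edgeR adjusted p = 0.0452). The injured tubule list, which shares Lcn2 and Vcam1 with the effector list, had 4 of 5 genes lower, and its part in these values was not tested.

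Between the FGF23 group and NC, 33 of 75 tested genes of the lists were higher and 7 lower, with a median log2 change of 0.43. Over all 19005 genes tested, 42.3% were called, 21.7% higher and 20.6% lower. With library totals alone, where the median of all genes was 0.34, 50 genes of the lists were higher and 3 lower. Over all genes, 7829 were then higher and 2096 lower in place of 4123 and 3912. Among receptors Tnfrsf23 (26.8-fold), Eda2r (13.5-fold) and Tnfrsf22 (4.40-fold) were higher and Tnfrsf19 (3.15-fold) and Edar lower. Tnfrsf19 had 22 to 193 counts a library in NC, and its groups overlapped. Tnfsf13b was 1.64-fold higher and Tnfsf10 2.49-fold lower. Birc3 (2.39-fold), Map3k14 (1.81-fold) and Traf3 (1.65-fold) led the 21 adaptor and kinase genes. Of these 7 were higher and 3 lower, Chuk by 1.62-fold, Traf4 by 1.32-fold and Tab1 by 1.24-fold. The share called in this list was near that over all genes. Bcl3 (4.56-fold), Nfkbiz (4.13-fold) and Nfkbie (1.81-fold) led 6 of 8 subunit and IkB genes, with Rela 1.58-fold and Nfkb1 1.34-fold higher. Otulin (1.87-fold), Tnip2 (1.54-fold) and Cyld (1.28-fold) were higher among feedback genes. Lcn2 (109-fold), Cxcl1 (30.1-fold) and Csf1 (4.06-fold) led 9 of 11 effector genes, and Sod2 was 2.09-fold lower. Tnf was at 0.560 ± 0.0744 CPM against 0.163 ± 0.142 in NC (edgeR adjusted p = 0.0781).

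**Figure D5:**
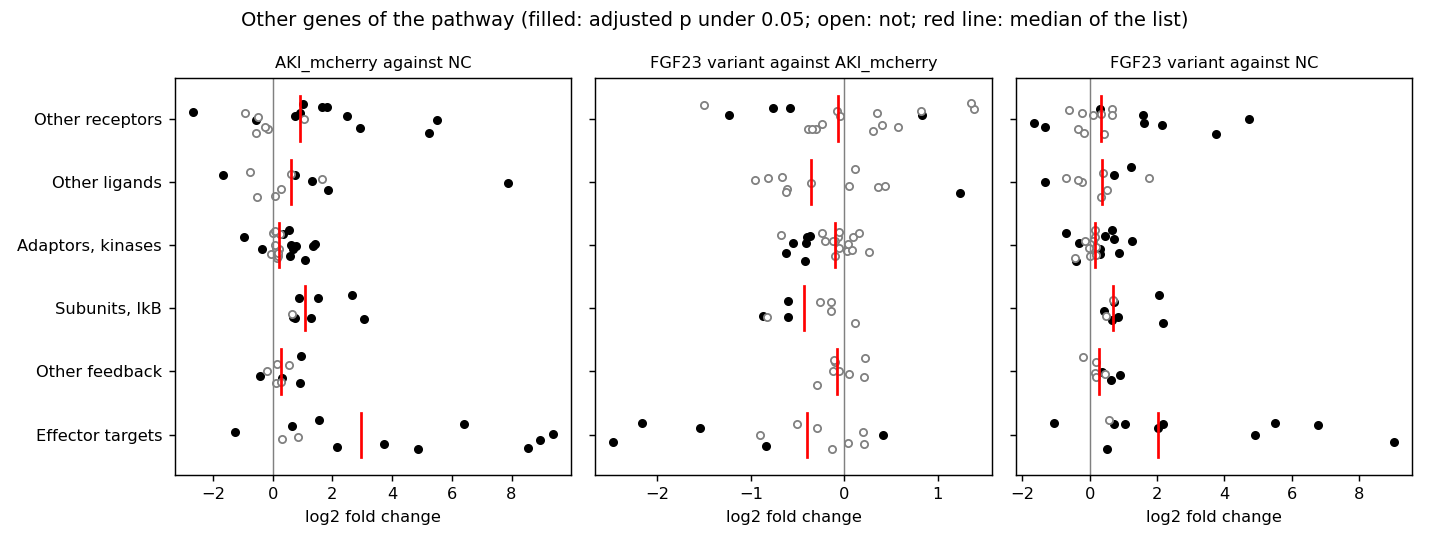
Log2 fold change of the other pathway genes tested, by list, in the 3 comparisons (each panel on its own scale; vertical spread within a list carries no meaning). Red lines are list medians, and filled points passed an adjusted p of 0.05, which 48 of 78, 19 of 78 and 40 of 75 genes did.

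The genes whose pattern over the 12 libraries was most like that of Tnfrsf12a were Tnfrsf23, Plaur, the urokinase receptor gene, and Dusp5, the gene of a phosphatase that acts on ERK. Likeness was the root mean square difference of log2(CPM + 1), each gene centred on its mean, over 11046 genes with a mean of at least 5 CPM. It was 0.182 for Tnfrsf23, 0.221 for Plaur and 0.294 for Dusp5. The added 1 shrinks rises from low levels, and Tnfrsf23 and Dusp5 averaged 0.907 and 1.31 CPM in NC. By edgeR, Tnfrsf23 rose 45.7-fold from NC to AKI_mcherry, against 24.9-fold for Tnfrsf12a. The order of these genes may therefore depend on the added 1. Plaur averaged 4.19 ± 1.46 CPM in NC, 104 ± 6.24 in AKI_mcherry and 79.6 ± 12.9 in the FGF23 group. Nearest to Nfkb2 were Ppan (0.118), Snhg1 (0.120) and Gpatch4 (0.122), of which Ppan is known in ribosome assembly and Snhg1 hosts small nucleolar RNAs. Tnfrsf11b, at under 1 CPM, is flattened by the added 1, and its nearest genes, Cxxc5, Shoc2 and Primpol (0.141 to 0.152), varied little. Among the 10 genes themselves the closest pair was Tnfrsf1a and Nfkb2 (0.161), followed by Nfkb2 and Relb (0.201), and the most distant was Tnfrsf12a and Tnfrsf21 (2.26). All 12 libraries enter these values, so they include the differences between the groups.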

How the data were processed

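Poly(A) RNA of 12 kidney samples was sequenced as read pairs from dUTP strand-marked libraries, per the labels' protocols. Build GRCm39 and the tools fastp, StringTie and edgeR are listed in the submitters' processing notes. For the aligner, annotation and counting options, nothing is given in the sources used here. The authors deposited a whole-number count and an FPKM value (per the file headers) for 32047 genes per library. Counts were used for tests, and FPKM for levels between genes and ratios. The supplied annotation is of another build, GRCm38, and served for symbols (31942 matched), overlaps and promoters. A count of 4 occurred 11995 times against 5847 for 3, so single events may be counted more than once. Library pairs within groups gave 34.1 to 148 for chi-square over its degrees of freedom, so no pair was treated as a duplicate.

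The 8 libraries of a comparison entered a separate fit in edgeR 4.0.16 (R 4.3.3): filterByExpr, TMM factors, the quasi-likelihood F test and Benjamini-Hochberg adjustment over all genes tested. The SE is the log2 fold change divided by the root of F. CPM use TMM factors over all 12 libraries. For ratios, all 70 assignments of libraries to groups gave an exact two-sided permutation p. The fit was tested on data simulated with known changes, and recovered 9.52%, 15.2% and 17.5% of 1.5-fold changes and 53.7%, 43.8% and 57.4% of 2-fold changes among 17941, 18164 and 18344 genes (AKI_mcherry against NC, the FGF23 group against AKI_mcherry and against NC), with 4, 10 and 9 false calls. Only 61 to 67 genes were changed at each size, whereas 53.1%, 23.1% and 42.3% of genes were called in the data. The adjustment depends on how many genes change, so these recovered shares do not carry over to the data.

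The members and gene lists were chosen with earlier results of these data known. All members are named. From each other list, up to 3 genes a direction with the largest change past 0.05 and a mean of at least 1 CPM are named, besides Tnf, Rela, Nfkb1, Map3k14 and Birc3. Alternatives were RLE factors, library totals alone, no filter, a 5 CPM minimum of the mean, DESeq2 1.42.0, a joint fit of all 12 libraries, a block for the replicate number, counts in place of FPKM in ratios, and leaving out each library.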

Additional observations from a re-analysis of the deposited data

Results flagged for a closer look

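In 42 sets of 4 libraries, 10 genes and 4 ratios in 3 groups, 3 had a library set apart from the other 3 by a gap that exceeded the 95% critical value of Dixon's test. Chance sets apart about 1 in 20 sets. Tnfrsf12a was lowest in AKI_mcherry replicate 4, at 348 CPM against 377 to 383 in the other libraries. Nfkbia was highest in AKI_mcherry replicate 1, at 36.3 CPM against 30.3 to 31.3. The FPKM ratio of Relb to Rela was lowest in NC replicate 3, at 0.0844 against 0.108 to 0.113.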

How the results depend on the processing

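Tnfrsf12a and Tnfsf12 kept their direction and their call in all 3 comparisons under all 15 alternatives each, and between AKI_mcherry and NC so did the other members, except that Tnfrsf11b could not be fitted under the 5 CPM minimum and passed in none of its 14. Members called ranged from 9 to 9, 2 to 4 and 7 to 8 when 1 library was left out (AKI_mcherry against NC, the FGF23 group against AKI_mcherry and against NC). In the second comparison, genes called fell from 4347 to between 2410 and 4259 and other pathway genes from 19 to between 10 and 17. The lowest counts came without the FGF23 group's replicate 1 (2410 and 11), replicate 2 (2853 and 11) or replicate 5 (2718 and 10), fits with fewer samples. The Relb to Rela ratio of the FGF23 group over NC was 0.737 to 0.975 on the log2 scale when 1 library was left out, and 0.84 with all. It lost its call without any NC library (exact permutation test, adjusted p = 0.0980). With the replicate number as a block, 1787 genes and 8 other pathway genes were called in the second comparison and 4723 genes in the third, in place of 4347, 19 and 8035. What a shared replicate number marks is not stated. Deviations of same-numbered libraries from the group means correlated at -0.294 to 0.190, and 2 of 10 pairs correlated best with their own number. Those 2 were replicates 1 and 3 between the FGF23 group and AKI_mcherry. There replicates 1, 2 and 3 correlated at 0.139, 0.081 and 0.190. Whether the number marks a shared batch was not tested. The members called were 9, 2 and 7 with the block. With library totals alone the log2 median of all genes between AKI_mcherry and NC moved to 0.12, and uncalled differences changed sign for Tnfrsf1a and Nfkbia between the injured groups (0.09 and 0.04) and for Tnfrsf21 between the FGF23 group and NC (0.07). The last passed in 1 of 15 alternatives, without NC replicate 1 (-0.34, edgeR adjusted p = 0.0370). Tnfrsf11b had 4 to 53 counts a library, the lowest counts of the 10 genes.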
